A study of Mus musculus with 15 samples.

Results

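The genes described here are 35 members of hepatic fatty acid oxidation and targets of the nuclear receptor PPARA, out of 27343 gene names on the array. They were taken by name: Ppara itself, the carnitine shuttle, the enzymes of mitochondrial and peroxisomal β-oxidation, omega oxidation, electron transfer, acyl-CoA thioesterases, fatty acid binding, uptake and activation, ketone body interconversion, and the PPARA-responsive genes Pdk4, Fgf21 and Vnn1. Mouse hepatocytes that had been grown as expandable cells were compared in 2 culture states with freshly isolated hepatocytes, on 1-colour Agilent expression arrays. The eHep group (7 arrays) and the mHep group (7 arrays) came from the same 3 mice after 21 days of culture, 1 state in a medium for expansion and the other in a medium for differentiation. The labels do not spell out mHep, which is taken here as the state kept in differentiation medium. Strain 129S1 gave 2 of the mice, 129S1-No1 with 3 arrays per medium and 129S1-No2 with 1 array per medium, and strain C57B6 gave the other, C57B6-No1, with 3 arrays per medium. The primary group is 1 array of hepatocytes isolated from C57B6 mice by collagenase perfusion and not cultured. No genetic change, drug or animal age is named in the labels, and nothing says whether the arrays of 1 mouse are separate cultures, so the p-values within a mouse measure only the spread between arrays.

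Fatty acids enter the hepatocyte, are bound by FABP1, and are activated to acyl-CoA by enzymes such as ACSL1. CPT1A, the carnitine carrier SLC25A20 and CPT2 carry the long-chain acyl groups into mitochondria, where acyl-CoA dehydrogenases, hydratases, hydroxyacyl-CoA dehydrogenases and thiolases shorten them, and ETFA, ETFB and ETFDH pass the electrons on to the respiratory chain. PPARA is the fatty acid sensor of the liver: in fasting it binds with RXR to response elements built from a repeated short sequence and raises transcription of these enzymes, of the peroxisomal and omega-oxidation pathways, and of the hormone FGF21.

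The repeated unit of that element is AGGTCA, and the element itself is a pair of these units in the same direction with 1 base between them. In RefSeq promoters of build GRCm38.p6, the 250 bases before the annotated start were searched on both strands for this pair with up to 1 mismatch in each copy. The table held 33 promoters of 30 of the 35 genes, and 2 of them carried a match, 6.06% of these promoters against 1.98% of the 32851 promoters in the table. The 2 matches are shown because they fall on the gene that differed most between the culture states and on one of those that differed least. Capitals mark the match, and both are on the strand opposite to the one printed. The first lies 67 to 55 bases before the start of Fabp1 at chr6:71199782-71199854 (plus strand), reads AGGCCATAGGTCA on the opposite strand, and has 1 mismatch, in its first copy. The second lies 77 to 65 bases before the start of Etfa at chr9:55512278-55512350 (minus strand), reads AGGGCAAAGGTAA on the opposite strand, and has 1 mismatch in each copy.
Fabp1: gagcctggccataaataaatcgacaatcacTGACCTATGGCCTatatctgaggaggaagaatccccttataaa
Etfa: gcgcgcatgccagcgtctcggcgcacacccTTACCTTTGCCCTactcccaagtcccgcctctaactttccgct

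A single exact AGGTCA on either strand was found in 6 of these 33 promoters (18.2%), against 4607 of the 32851 promoters in the table. Fabp1 has one inside the pair above and another nearer its start. The other 5 are Cpt1a, Slc27a2, Acadm, Acadvl and Acot4. Acot4 and Slc27a2 are shown, the former because all its mHep arrays lay above all its eHep arrays and the latter because its change had the largest interaction with mouse. Capitals mark the unit, which lies on the opposite strand, 13 to 8 bases before the start of Acot4 at chr12:84038336-84038378 (plus strand) and 220 to 215 bases before that of Slc27a2 at chr2:126552774-126552839 (plus strand).
Acot4: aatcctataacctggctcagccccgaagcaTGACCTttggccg
Slc27a2: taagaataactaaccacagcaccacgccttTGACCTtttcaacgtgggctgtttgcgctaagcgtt
A match here is a string of letters and not a shown binding site, and Ppara, Ehhadh, Pdk4 and Fgf21 had neither the pair nor an exact single unit in this window.

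Levels are log2 of the scanner's processed signal minus the log2 of that array's 75th percentile, so a level of 0 is the signal at that percentile. Each gene was read from 1 probe, the brightest on average of its probes, and levels of different probes were not compared. The arrays differed in reach: the scanner's software called 48.8% to 61.9% of probes well above background on the cultured arrays and 36.2% on the primary array, where the signal at the 75th percentile was 78.3 against 248.6 to 826.6 on the others. Well above background on all 15 arrays were 29 of the 35 genes. The array titled as mHep from mouse 129S1-No2 carries the source name of an eHep array, and it was kept as mHep by its title. Hepatocyte markers were higher on the arrays where many genes described below were: of Alb, Ttr, Apoa1, Hnf4a, Cps1, Tat, G6pc and Cyp2e1, 5 were above background on some eHep array and 7 on some mHep array, and their summed log2 level ranged from 0.27 to 3.01 in eHep, from 6.62 to 9.14 in mHep, and was 12.33 on the primary array. Cyp2e1 was not well above background on any cultured array. Of 5 biliary and progenitor markers, Krt19, Krt7, Sox9 and Spp1 were above background on every cultured array, and the summed level of the 5 was 8.06 to 9.27 in eHep, 7.22 to 9.73 in mHep and 2.40 on the primary array. Of 4 mesothelial markers Msln was above background on all 14 cultured arrays and each of the others on some of them in both media, with 0 of 4 on the primary array. Of 8 macrophage markers 4 were above background on some eHep array, 3 on some mHep array and 7 on the primary array; Csf1r was on all cultured arrays and C1qb on 6 of 7 eHep and 7 of 7 mHep arrays, while Clec4f, Cd5l, Adgre1 and C1qa were on none. Their summed level was -3.18 to 0.81 in eHep, -2.65 to 0.0063 in mHep and 4.04 on the primary array. Of 8 endothelial markers 4 were above background on some eHep array, 4 on some mHep array and 4 on the primary array, with a summed level of -3.05 to -0.86, -2.86 to -0.96 and 3.97. The part of these markers in the results below was not tested. In RNA from a whole culture, fewer cells that express a gene and less RNA per cell cannot be told apart.

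In differentiation medium the genes of this set were mostly higher than in expansion medium. The receptor Ppara itself, the fatty acid binding protein Fabp1, the omega-hydroxylase Cyp4a10 and the peroxisomal bifunctional enzyme Ehhadh rose, by between 5.82-fold and at least 265-fold, and no member fell. The comparison was made on the means of the 3 mice with the mouse as a block (limma, Benjamini-Hochberg adjustment over 14597 genes, adjusted p under 0.05). Of the 35 members 34 passed the filter on dim probes and 4 were called higher. Fabp1, Slc27a2 and Acot3 passed it through mHep alone, so a higher call was favoured for them. Over all genes tested 1.38% were called higher and 0.452% lower. The log2 difference was above 0 for 32 of the 34 and for 6422 of the 14597 genes tested. Its median over the members was 1.10 against -0.10 over all genes tested. An unadjusted limma p under 0.05 was found for 20 of the 34 and for 2182 of the 14597. The mHep arrays all lay above the eHep arrays for 7 members (Ppara, Fabp1, Hadhb, Decr1, Etfdh, Acot4 and Cyp4a10), a separation found for 2.75% of all genes tested, and the opposite separation, found for 2.86% of genes, was seen for no member. As each mouse was left out, 7 members were called higher without 129S1-No1, 6 without 129S1-No2 and 4 without C57B6-No1. Without C57B6-No1 Ehhadh lost its call and Fgf21 gained one. The share of all genes called in these reduced fits is not given here, so the counts are not read as results about the members. Without the mouse block 0 passed. With the arrays scaled on the probes detected on every array, by quantiles, or as in the authors' value table, 1 member passed, Ppara.

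**Figure D1:**
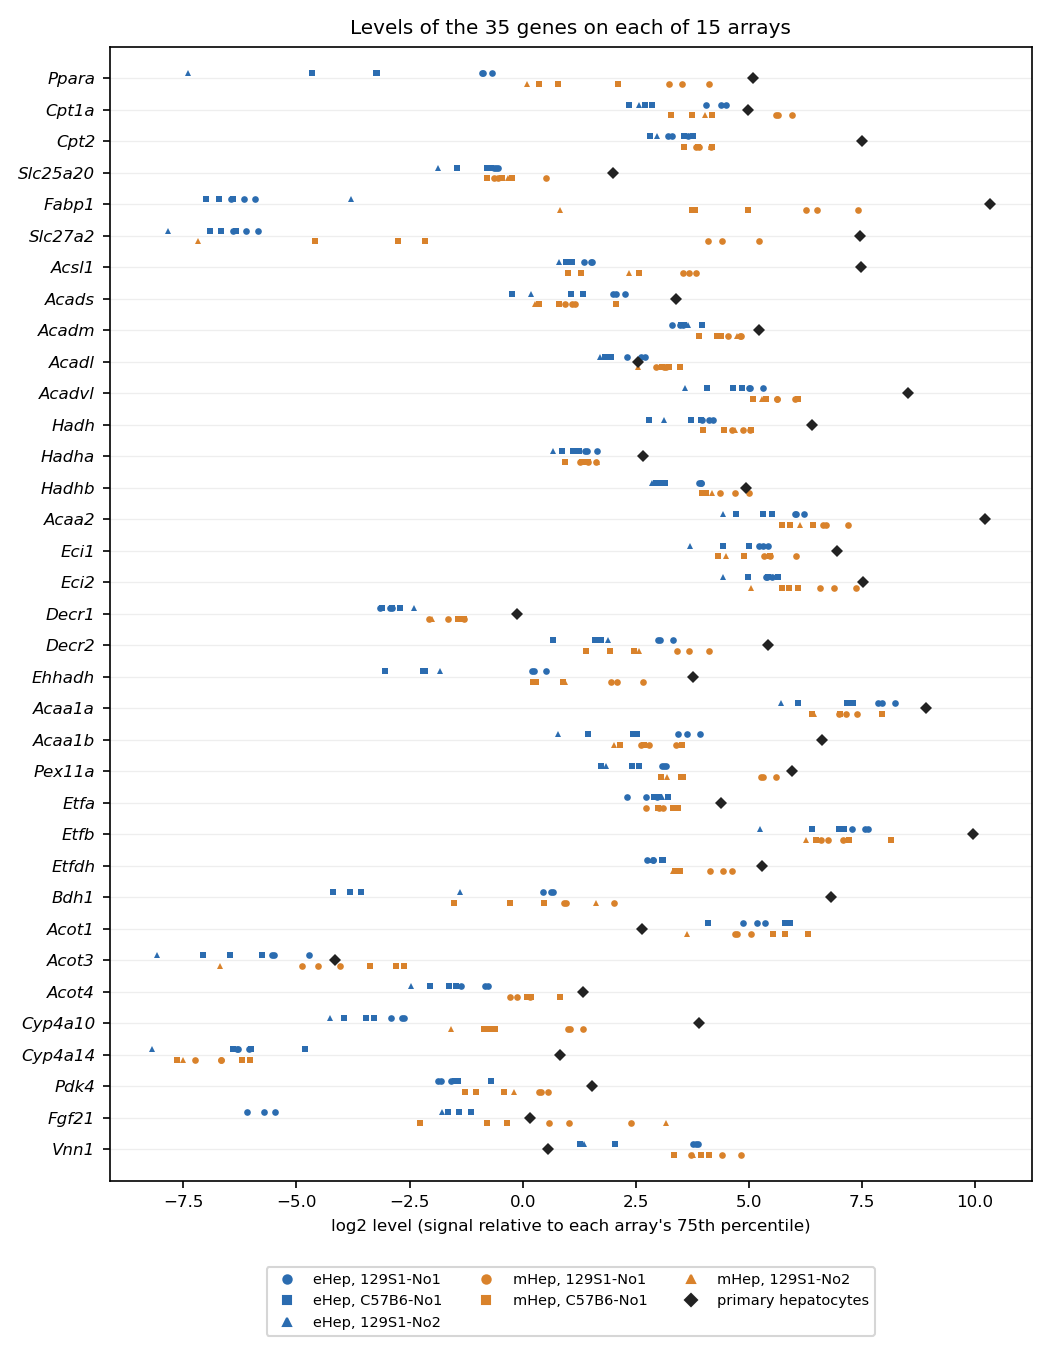
Log2 level of each of the 35 genes (rows, ordered by role) on each of the 15 arrays, relative to the array's 75th percentile. Blue is eHep, orange mHep and black primary hepatocytes, and the marker shape gives the mouse; levels are to be compared along a row only. The mHep points of Fabp1 and Ppara lie to the right of all their eHep points, and for 28 genes the primary point lies to the right of all cultured points.

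Ppara encodes the receptor that gives the set its name, and its probe lies at chr15:85631955-85632014 (mm9). In eHep the log2 level of Ppara was -7.40 at its lowest, -3.22 at the median and -0.68 at its highest, and in mHep it was 0.10, 2.11 and 4.12. The lowest eHep array, that of 129S1-No2, was the only one where Ppara was not well above background. The groups did not overlap, and the mice lay apart in eHep, with means of -0.82 for 129S1-No1, -7.40 for 129S1-No2 and -3.71 for C57B6-No1. The log2 difference between the media was 4.44, 7.502 and 4.79 in these mice, and 5.58 ± 0.67 (SE, n = 3 mice) in the fit, with a limma adjusted p of 0.0216. Counting the dim array at its background limit, Ppara was at least 33.9-fold higher in mHep. The call held under 19 of 20 alternatives, the exception being the fit without the mouse block (adjusted p 0.39).

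No gene of the carnitine shuttle passed the test. Cpt1a, which makes acylcarnitines at the outer mitochondrial membrane and is the controlled step of the pathway, ranged from 2.35 to 4.50 in eHep (median 2.87) and from 3.29 to 5.96 in mHep (median 4.19). The groups of Cpt1a overlapped because 129S1-No1 was high in both media, while within each mouse the difference lay between 1.10 (C57B6-No1) and 1.46 (129S1-No2). Its mean log2 difference was 1.33 ± 0.37 (SE, n = 3 mice) and did not pass (limma adjusted p 0.174), and its other probe gave 1.28. Cpt2, which remakes acyl-CoA inside the mitochondrion, gave 0.75 and the carnitine-acylcarnitine carrier Slc25a20 gave 0.79, neither of which passed.

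Fabp1, the abundant fatty acid binding protein of the hepatocyte cytosol, had the largest fitted difference of the members, with its probe at chr6:71154906-71154965 (mm9). On the eHep arrays its log2 level was -7.01 at the lowest, -6.39 at the median and -3.80 at the highest, and on the mHep arrays 0.82, 4.98 and 7.42. Only 1 of 7 eHep arrays, that of 129S1-No2, had Fabp1 well above background, and all 7 mHep arrays did. The mouse with the highest eHep value had the lowest mHep value, so that the log2 difference was 4.61 in 129S1-No2 against 12.89 in 129S1-No1 and 10.89 in C57B6-No1. The fitted difference was 9.46 ± 1.48 (SE, n = 3 mice, limma adjusted p 0.0434), and with the dim arrays at their background limit Fabp1 was at least 265-fold higher in mHep. That bound holds under the 75th-percentile scaling, and over the alternatives the log2 difference ran from 6.37 to 12.24.

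No eHep array showed Slc27a2, a very long-chain acyl-CoA synthetase and fatty acid transporter, well above background, and its log2 level there lay between -7.84 and -5.86 (median -6.40). The mHep arrays of Slc27a2 lay in separate ranges by mouse: 4.09 to 5.22 in 129S1-No1, -4.60 to -2.16 in C57B6-No1, and -7.18 in 129S1-No2, where it was again not well above background. Its mean difference of 4.94 ± 1.76 (SE, n = 3 mice) did not pass (limma adjusted p 0.273), which amounts to at least 7.59-fold against the background limit of the eHep arrays. A second probe of Slc27a2 gave 2.21 and the remaining one, not above background on any array, 0.05. Acsl1, the main long-chain acyl-CoA synthetase of liver, ranged from 0.81 to 1.54 in eHep (median 1.09) and from 1.00 to 3.84 in mHep (median 2.57). The 129S1-No1 arrays of Acsl1 were again the highest in mHep, and its mean difference of 1.45 ± 0.46 did not pass (adjusted p 0.219).

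Among the acyl-CoA dehydrogenases, which take the first 2 hydrogens from acyl-CoA of decreasing chain length, none passed. The log2 difference was 1.11 for the very long-chain enzyme Acadvl, 0.92 for Acadl, 0.96 for the medium-chain enzyme Acadm and -0.19 for the short-chain enzyme Acads. Acads was the one of these whose mice split, at -1.04 for 129S1-No1, 0.11 for 129S1-No2 and 0.35 for C57B6-No1. Of the later mitochondrial steps, Hadhb (thiolase subunit of the trifunctional protein) gave 1.02, Hadh 1.12, the thiolase Acaa2 1.10 and Hadha 0.36. Hadhb separated the groups, though by little, ranging from 2.85 to 3.945 in eHep (median 3.15) and from 3.954 to 5.004 in mHep (median 4.19), with a limma adjusted p of 0.294. The auxiliary enzymes for unsaturated chains gave 1.09 for Decr1, 0.90 for Eci2, 0.63 for Decr2 and 0.40 for Eci1. Decr1, the mitochondrial dienoyl-CoA reductase, ranged from -3.15 to -2.40 in eHep (median -2.89) and from -2.08 to -1.29 in mHep (median -1.44) and did not overlap either (adjusted p 0.308).

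In the peroxisome, where very long chains are shortened, Ehhadh rose while both thiolases did not pass. Ehhadh, the bifunctional enzyme, has its probe at chr16:21761914-21761973 (mm9). It ranged from -3.04 to 0.52 in eHep (median -1.83) and from 0.22 to 2.65 in mHep (median 0.94). The overlap comes from 129S1-No1, whose eHep mean of 0.32 was near the mHep mean of 0.46 in C57B6-No1, and within the mice the difference was 1.91 for 129S1-No1, 2.78 for 129S1-No2 and 2.93 for C57B6-No1. The mean was 2.54 ± 0.41 (SE, n = 3 mice; limma adjusted p 0.0466), or 5.82-fold, and the call was lost without mouse C57B6-No1. Pex11a, a PPARA-responsive factor of peroxisome division, gave 1.59 ± 0.42 (adjusted p 0.151) and was higher in mHep in all 3 mice, by between 1.13 and 2.27. The thiolases Acaa1a and Acaa1b, close copies whose probes may share transcripts, gave 0.04 and 0.39, each with 129S1-No1 below 0 (-0.84 and -0.73).

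No electron transfer gene passed. The flavoprotein subunits Etfa and Etfb gave log2 differences of 0.28 and 0.26, and Etfdh, which hands the electrons to ubiquinone, gave 0.79 (adjusted p 0.463) although its mHep arrays (3.31 to 4.62, median 3.47) all lay above its eHep arrays (2.76 to 3.10, median 2.88). For Etfdh most of the distance lay in 129S1-No1, at 1.56 against 0.35 and 0.46 in the other mice. Bdh1, the dehydrogenase that converts acetoacetate and 3-hydroxybutyrate into each other, ranged from -4.20 to 0.68 in eHep (median -1.39) and from -1.51 to 2.02 in mHep (median 0.92). Its eHep means lay apart by mouse, at 0.58 for 129S1-No1, -1.39 for 129S1-No2 and -3.86 for C57B6-No1, and its mHep means lay closer together, so the difference was 0.71, 3.01 and 3.42. The mean of 2.38 ± 0.61 did not pass (adjusted p 0.141), and a second Bdh1 probe, above background on 6 of the cultured arrays, gave 1.11.

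Cyp4a10, the omega-hydroxylase often read as a gauge of PPARA activity, rose, with its probe at chr4:115198154-115198213 (mm9). It ranged from -4.25 to -2.62 in eHep (median -3.29) and from -1.58 to 1.33 in mHep (median -0.62), without overlap. The difference was 3.86 for 129S1-No1, 2.67 for 129S1-No2 and 2.84 for C57B6-No1, with a mean of 3.12 ± 0.43 (SE, n = 3 mice; limma adjusted p 0.0310), or 8.71-fold. Its 3 other probes gave 1.42, 2.13 and 0.15, the last not above background on any cultured array, and with the mean of all probes the call was lost. The Cyp4a genes are close relatives, and a probe may read more than 1 of them. Cyp4a14, another PPARA target of this family, was not well above background on any mHep array and on 1 of 7 eHep arrays, so it was not tested between the media.

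The thioesterases, which split acyl-CoA into the free acid and CoA, did not move alike. Acot4 ranged from -2.46 to -0.78 in eHep (median -1.48) and from -0.28 to 0.83 in mHep (median 0.15), without overlap, and its difference of 1.87 ± 0.47 (SE, n = 3 mice) did not pass (limma adjusted p 0.136). The second Acot4 probe gave 1.53. Acot3 was well above background on 0 of 7 eHep arrays (-8.09 to -4.71, median -5.77) and on 6 of 7 mHep arrays (-6.68 to -2.63, median -4.03), a difference of 1.89 (adjusted p 0.221) that is at least 1.11-fold against the background limit. Acot1, a cytosolic enzyme whose close copies may share its probe, ranged from 4.10 to 5.91 in eHep (median 5.17) and from 3.62 to 6.30 in mHep (median 5.04), a difference of -0.06 that changed sign with the scaling.

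Of the regulators, Pdk4, the kinase that turns off pyruvate dehydrogenase in fasting, gave 1.28 ± 0.48 (adjusted p 0.299), with 2.197 for 129S1-No1, 1.34 for 129S1-No2 and 0.30 for C57B6-No1. Fgf21, the fasting hormone of the liver, was not well above background on the 3 eHep arrays of 129S1-No1. Its log2 level in eHep was -6.09 at the lowest, -1.78 at the median and -1.14 at the highest, and in mHep -2.27, 0.58 and 3.17. The difference for Fgf21 was 7.09 for 129S1-No1, 4.95 for 129S1-No2 and 0.26 for C57B6-No1, and the mean of 4.10 ± 1.22 (SE, n = 3 mice) did not pass (limma adjusted p 0.199). Vnn1, a pantetheinase and PPARA target, gave 0.49, 2.40 and 2.27 in these mice, with a mean of 1.72 ± 0.51 (adjusted p 0.199). Its eHep arrays split by mouse, 3.76 to 3.88 in 129S1-No1 and 1.28 to 2.04 in the other mice, while all mHep arrays lay between 3.34 and 4.83.

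**Figure D2:**
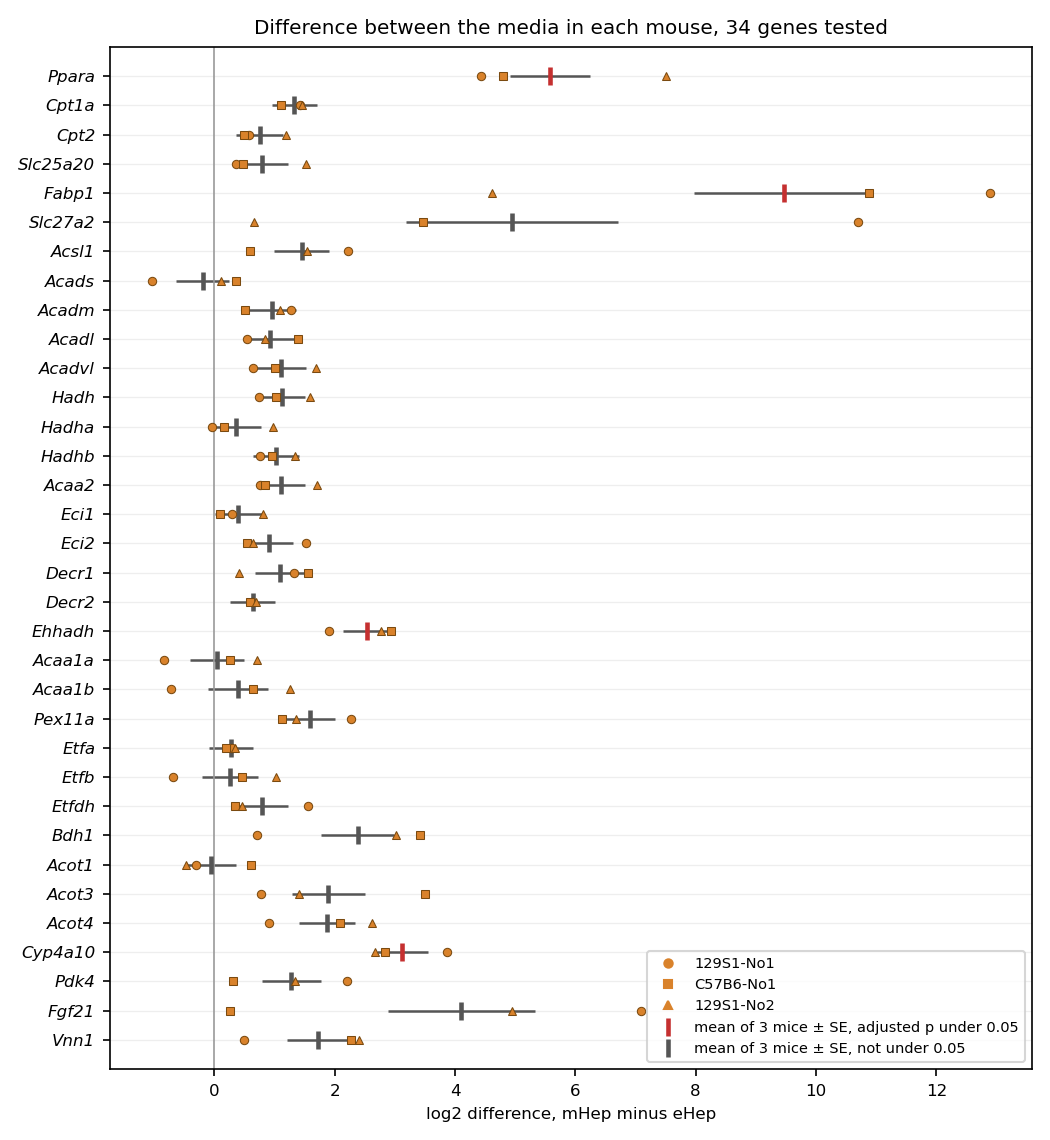
Log2 difference, mHep minus eHep, for the 34 genes tested: each orange marker is 1 mouse, the vertical tick is the mean of the 3 mice and the line its standard error. Red ticks mark the 4 genes with an adjusted p under 0.05 (Ppara, Fabp1, Ehhadh and Cyp4a10); Fabp1, Slc27a2 and Fgf21 show the widest spread between mice.

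The arrays of mouse 129S1-No1 stood above the others in this set in both media. All its arrays were of the later scan, both arrays of 129S1-No2 of the earlier one, and those of C57B6-No1 of both. Mouse and scan therefore cannot be told apart for the 129S1 mice. The values below are those of 129S1-No1 unless another mouse is named. Of the 34 members tested, the mean of 129S1-No1 was the highest of the 3 mice for 25 in eHep (73.5%) and for 21 in mHep (61.8%). Over all genes tested it was the highest for 46.6% and 38.3%. The median log2 difference between the media over the members was 0.76 for 129S1-No1, 1.34 for 129S1-No2 and 0.74 for C57B6-No1, and it was above 0 for 28, 33 and 34 of the 34.

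Within each of the 2 mice with 3 arrays per medium, 18 and 17 of 34 members rose and none fell. These fits used the 12 arrays of the 2 mice, and their error is the spread between arrays of 1 mouse. Fabp1, Slc27a2 and Acot3 entered these fits too through mHep alone. Within 129S1-No1, 18 of 34 members were called higher and 0 lower, where 17.3% of all 15743 genes tested were called higher and 27.1% lower. Within C57B6-No1, 17 were called higher and 0 lower, where 11.8% were called higher and 13.4% lower. For 129S1-No1 and 129S1-No2 the 2 media were also on different slides, so slide and medium cannot be told apart in those mice. The arrays numbered 1 and 2 of C57B6-No1 were on different slides by medium too. Slide is therefore mixed with medium in the comparison over the 3 mice and in the interaction below. The arrays numbered 3 of C57B6-No1 shared a slide: on it 33 of the 34 members were higher in mHep, with a median log2 difference of 1.13, and Ppara was higher by 6.77, Fabp1 by 11.99, Ehhadh by 3.92 and Cyp4a10 by 3.34. With normexp background correction 9 members passed within C57B6-No1, and within 129S1-No1 members fell under some alternatives, 1 with median scaling, 3 with the array number as a block and 4 on the later scan alone.

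The size of the change differed between these 2 mice for 11 members by the interaction of mouse and medium (limma over the 12 arrays). It was larger in C57B6-No1 for 3 members and smaller for 8, where 10.3% and 6.29% of all genes were called in these directions. Slc27a2 had the largest fitted interaction, -7.23 (limma adjusted p 0.00023). Its eHep arrays were below background in both mice, against which it was at least 2.71-fold higher in mHep of C57B6-No1 and at least 386.5-fold in 129S1-No1. The interaction of Slc27a2 ranged from -7.86 to -4.28 and kept its call under all 24 alternatives, while its call within C57B6-No1 was lost with normexp, with the mean of all probes and with dim readings raised to the background limit. The change of Fgf21 was 0.26 ± 0.53 against 7.09 ± 0.53, an interaction of -6.83 (adjusted p 0.0003). For Fgf21 the mice lay apart in both media. Its eHep arrays were at -1.65 to -1.14 in C57B6-No1 and at -6.09 to -5.49 in 129S1-No1. Its mHep means were -1.14 in C57B6-No1 and 1.33 in 129S1-No1. All 3 eHep arrays of 129S1-No1 were not well above background, so that Fgf21 was at least 41.0-fold higher in mHep there. Smaller changes in C57B6-No1 were called for Fabp1 (-2.01), Pdk4 (-1.89), Acsl1 (-1.63), Etfdh (-1.21), Pex11a (-1.14) and Cyp4a10 (-1.02), and larger ones for Bdh1 (2.71), Vnn1 (1.78) and Acot3 (2.74). For Acot3 the eHep arrays of both mice were below background, and with normexp its interaction was 0.49 (adjusted p 0.82). The interaction call of Bdh1 was lost with normexp and with the mean of all probes. A second Bdh1 probe, above background on 2 of 7 eHep and 4 of 7 mHep arrays, changed by 0.88 in 129S1-No1 and 0.09 in C57B6-No1. Mouse 129S1-No2 had a change of 0.66 for Slc27a2, 3.01 for Bdh1, 2.40 for Vnn1 and 1.41 for Acot3, and with 1 array per medium it was not in this test.

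The count of 11 varied with the arrays used, and the share of all genes called in these alternative fits is not given here. It ranged from 5 to 15 as each of the 12 arrays was left out, from 5 to 7 when any array of 129S1-No1 was, and Slc27a2, Fgf21, Acot3, Etfdh and Pdk4 kept their call each time. It was 6 without the first or the second eHep array or the second mHep array of C57B6-No1. With normexp background correction 2 members passed, and without the filter on dim probes 7. Ppara did not differ by this test, at 4.79 ± 0.49 in C57B6-No1 and 4.44 ± 0.49 in 129S1-No1, an interaction of 0.35 ± 0.69 (adjusted p 0.734).

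**Figure D3:**
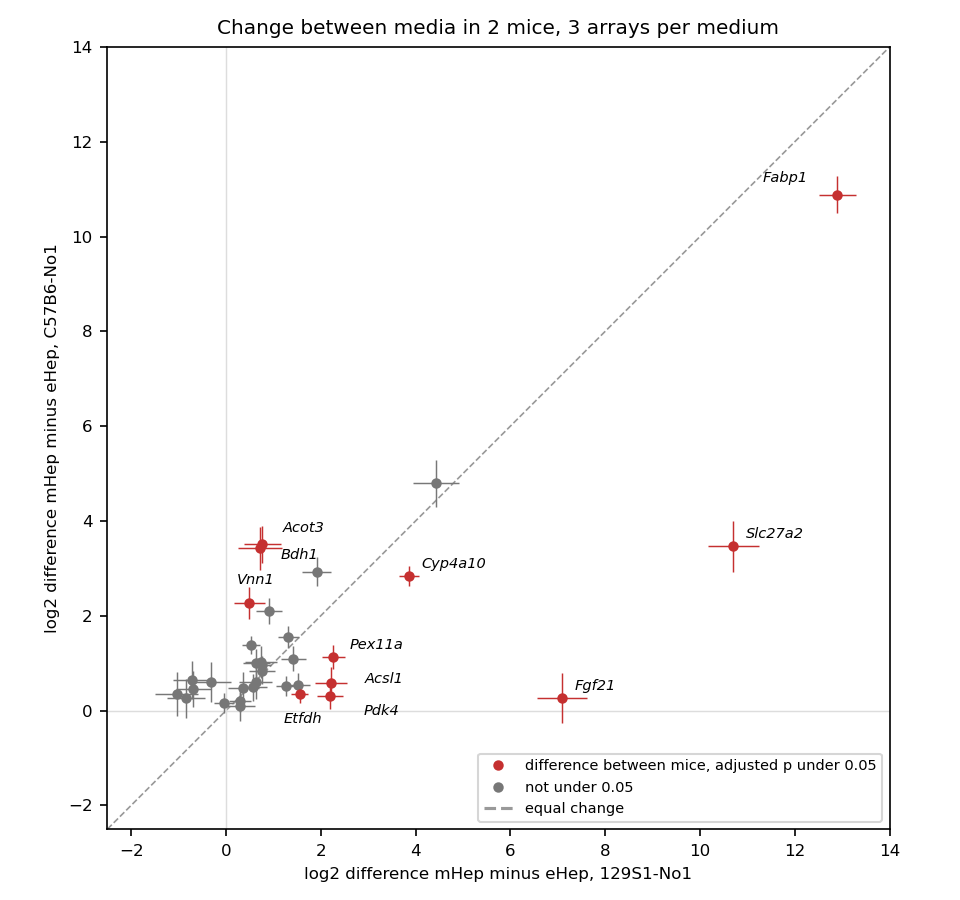
Log2 difference, mHep minus eHep, of the 34 genes in mouse 129S1-No1 (x axis) and mouse C57B6-No1 (y axis), 3 arrays per medium in each, with standard errors from the fit. Red points and names mark the 11 genes whose change differed between the mice, and the dashed line marks equal change; Slc27a2 and Fgf21 lie furthest from it.

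Against freshly isolated hepatocytes, 16 of the 35 members were lower in eHep and 5 in mHep. The primary level was above all 14 cultured arrays for 28 of 35 members, an ordering found for 29.3% of all genes tested, below all of them for Acot1 and Vnn1 (19.8% of all genes), and within the cultured range for Cpt1a, Acadl, Hadhb, Acot3 and Fgf21. The test set the 3 mouse means of each medium against the single primary array with the spread of the cultured means. A call needed an adjusted p under 0.05 and a log2 difference of at least 1. A gene could enter by being well above background on the primary array alone, which favours a lower call in culture. Among the members that was Cyp4a14. A gene not well above background on the primary array could enter only by the cultured arrays, which favours a higher call in culture. Among the members that was Acot3. In eHep 16 of 35 members were called lower and 0 higher, where 9.41% of 15168 genes were called lower and 5.62% higher. In mHep 5 were called lower and 0 higher, where 5.97% were called lower and 4.01% higher. The median log2 difference was -3.05 in eHep and -1.98 in mHep, against -0.19 and -0.34 over all genes. The 2 comparisons share the primary array. Both counts varied with the mice used: without C57B6-No1 4 members were called in eHep and 1 in mHep, and without 129S1-No1 13 were called in mHep. The share of all genes called in these reduced fits is not given here, so the change in count is not read as a result about the members. The primary array stands apart in strain from 2 of the 3 mice, in its dim signal and in its macrophage and endothelial markers, and their part in these differences was not tested.

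The 5 genes called lower in mHep were called lower in eHep too. The mitochondrial thiolase Acaa2 had a log2 level of 10.22 on the primary array, 4.42 to 6.22 in eHep (median 5.50) and 5.73 to 7.20 in mHep (median 6.42), which gave -4.99 ± 0.77 in eHep and -3.88 ± 0.77 in mHep (SE, n = 3 mice against 1 array; limma adjusted p 0.00838 and 0.0268). Acadvl gave -4.11 and -3.003, Cpt2 -4.25 and -3.50, and Acsl1 -6.37 and -4.92. Cyp4a14 had a level of 0.83 on the primary array and was not well above background on 13 of the 14 cultured arrays. It was at least 50.9-fold lower in eHep and at least 54.8-fold lower in mHep than on the primary array. Over the alternatives the log2 difference ran from -8.04 to -3.61 in eHep and from -8.40 to -3.55 in mHep. Cyp4a14 entered the test by the primary array alone, so its direction was fixed in advance and its calls are no support.

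Called lower in eHep and not in mHep were 11 members. Fabp1, at 10.33 on the primary array, was at least 22750-fold lower in eHep (adjusted p 0.00611), and its mHep difference of -6.42 ± 2.16 did not pass (adjusted p 0.115). Bdh1, at 6.81 on the primary array, gave -8.36 (adjusted p 0.0194) and -5.98 (adjusted p 0.0700). Cyp4a10, at 3.91, gave -7.42 (adjusted p 0.0077) and -4.30 (adjusted p 0.0585), and Ehhadh, at 3.76, gave -5.08 (adjusted p 0.0343) and -2.54 (adjusted p 0.218). The others were Acaa1b (-4.43 in eHep), Slc25a20 (-3.14), Acot4 (-3.05), Pdk4 (-3.04), Hadh (-2.83), Decr1 (-2.63) and Etfdh (-2.36). That a gene passed in 1 medium and not in the other does not show a difference between the media, for which the direct comparison above is the test.

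Ppara itself was at 5.09 on the primary array, above all cultured arrays. Its difference was -9.06 ± 2.42 in eHep (SE, n = 3 mice against 1 array; limma adjusted p 0.0514) and -3.49 ± 2.42 in mHep (adjusted p 0.388), with the wide error of its spread between mice. Ppara and Slc27a2 in eHep were each called lower under 11 of 16 alternatives. Slc27a2, at 7.45, was at least 5051-fold below it in eHep, which did not pass (adjusted p 0.0516), and gave -9.38 in mHep (adjusted p 0.173). The smallest differences from the primary level in mHep were those of Acadl (0.42), Cpt1a (-0.47), Acot3 (-0.54), Hadhb (-0.65) and Acadm (-0.66), and the sign of Cpt1a, Acot3, Hadhb and Acadm turned under quantile scaling. Acot3 was not well above background on the primary array. Vnn1 and Acot1 lay on the other side. Vnn1 had a level of 0.55 on the primary array against 1.28 to 3.88 in eHep and 3.34 to 4.83 in mHep, with differences of 1.69 (adjusted p 0.309) and 3.41 (adjusted p 0.0856). Vnn1 was called higher in mHep under quantile scaling, median scaling, scaling on probes detected on every array and in the authors' value table. Acot1 had a level of 2.63 on the primary array against 3.62 to 6.30 on the cultured arrays, with differences of 2.199 (adjusted p 0.171) and 2.14 (adjusted p 0.199).

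**Figure D4:**
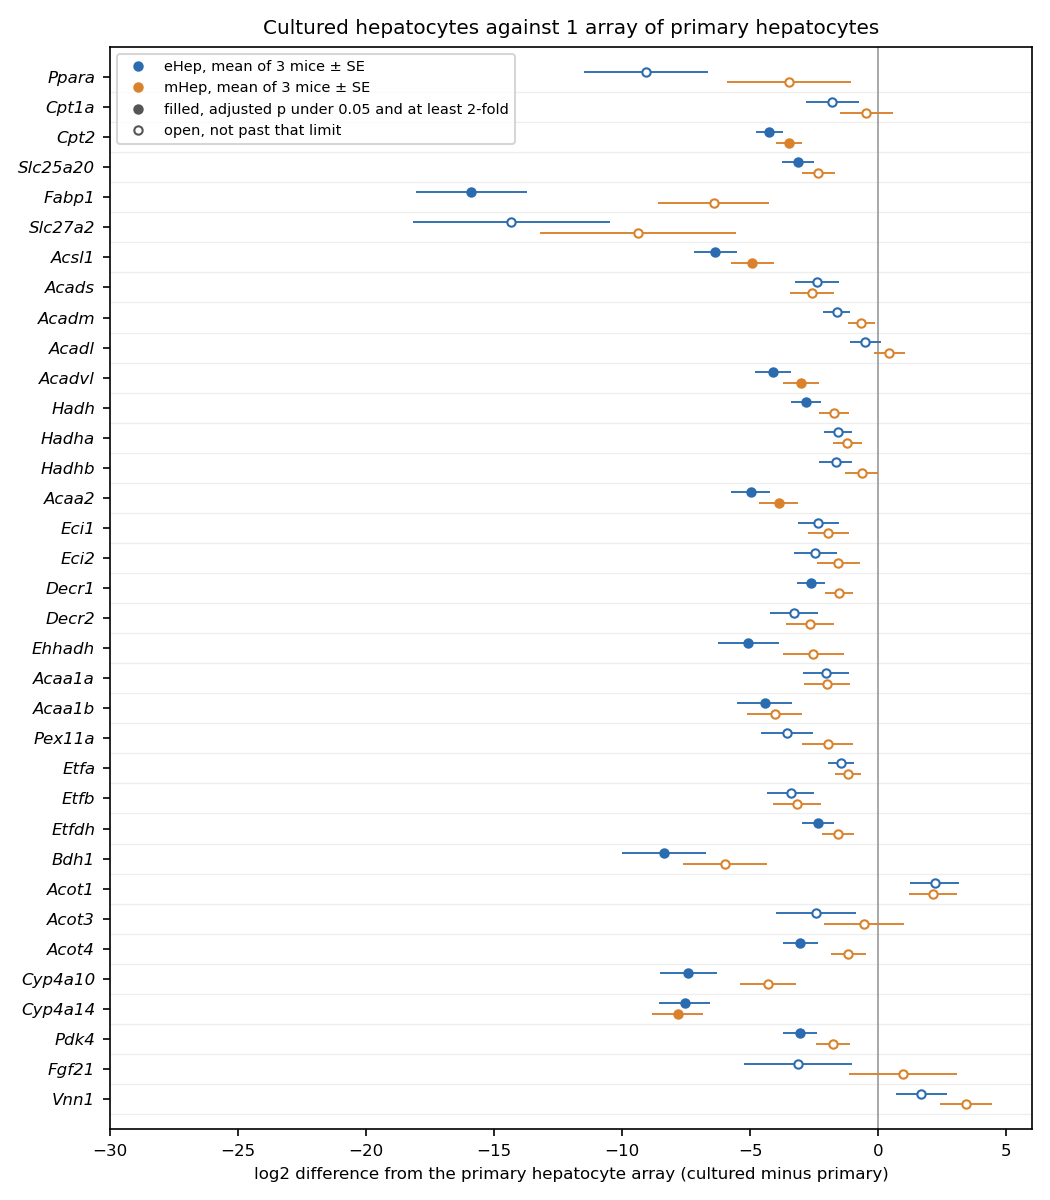
Log2 difference of eHep (blue) and mHep (orange) from the primary hepatocyte array for the 35 genes, mean of 3 mice with its standard error; both colours share the 1 primary array. Filled points mark an adjusted p under 0.05 with at least a 2-fold difference, and all 21 of them lie left of 0.

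The wider pathway was read from 5 further lists with 127 genes, of which 113 were tested between the media. Of these, 8 rose in mHep, 0 fell and 31 had an unadjusted p under 0.05. Over all genes tested 1.38% were called higher, and 2182 of 14597 had an unadjusted p under 0.05. With quantile scaling 5 rose, and 20 did without mouse 129S1-No1, 14 without 129S1-No2, where 1 also fell, and 14 without C57B6-No1. Each of the 8 was not well above background on 1 to 6 of the 7 eHep arrays, so their differences are given as lower bounds, with those arrays at their background limit. Cyp4f14, Cyp4a12b, Cd36 and Acot12, at least, were too dim in eHep to enter there and entered through mHep alone. A higher call was favoured for them, so its direction is no support. Of 30 other PPARA targets tested 5 rose: Creb3l3, a liver transcription factor that works with PPARA in fasting (at least 50.5-fold; n = 3 mice, limma adjusted p 0.00258), the fatty acid hydroxylases Cyp4f14 (at least 35.6-fold), Cyp4a12a (at least 28.1-fold) and Cyp4a12b (at least 14.1-fold), and Plin5, a lipid droplet protein of oxidative tissues (at least 25.3-fold). Of 18 other genes of uptake, activation and thioester hydrolysis 3 rose: the fatty acid translocase Cd36 (at least 229-fold; adjusted p 0.00197), the medium-chain acyl-CoA synthetase Acsm1 (at least 8.15-fold) and the acyl-CoA thioesterase Acot12 (at least 13.1-fold). Cd36 was well above background on 2 of 7 eHep arrays and all mHep arrays, and it was at least 47.0-fold higher in mHep than on the primary array, where it was not well above background (adjusted p 0.00866). Against the primary array too it entered through mHep alone, so the direction of that call is no support. Of 32 other genes of oxidation and ketogenesis, 18 PPAR partners and co-regulators and 15 genes of peroxisome biogenesis none was called, with 9, 3 and 0 at an unadjusted p under 0.05. Their median log2 differences were 0.54, 0.18 and 0.09.

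Against the primary array, 40 of 120 genes of these lists were lower in eHep and 2 higher, where 9.41% and 5.62% of all genes were. The 120 include genes that entered by the primary array alone, among them Cyp4f15, Fitm1, Rxrg and Cyp8b1, which were called lower in eHep. A lower call was favoured for such genes, so its direction is no support. In mHep 21 were lower and 3 higher, where 5.97% and 4.01% of all genes were. Oxct1, the enzyme by which tissues other than liver use ketone bodies, was not well above background on the primary array and at least 122-fold higher in eHep (adjusted p 0.00292) and 119-fold higher in mHep (adjusted p 0.00362). The 2 genes called higher in eHep, Oxct1 and Cpt1c, were not well above background on the primary array and entered by the cultured arrays alone. A higher call was favoured for them, so its direction is no support.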

How the data were processed

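Total RNA was labelled with 1 dye and hybridised to Agilent arrays, per the labels' protocols. The deposited scanner files hold, per the file headers, a processed signal for each spot, an intensity on a linear scale corrected for background by Agilent software, Feature Extraction versions 10.7.1.1 and 10.7.3.1. The authors' value table holds log2 values of the same arrays whose scale and centring are not given in the sources used here; it gave the same counts of calls as quantile scaling and was an alternative only. Spots of 1 probe were averaged (41174 probes, none saturated), log2 taken, and each array centred on its 75th percentile. Folds given as at least hold under this centring. Genes took the brightest of their probes (11 members have more than 1), names coming from RefSeq accessions or symbols in the files. A gene was tested between media if, in 1 medium, 2 or more mice had it well above background on each of their arrays. Against the primary array, genes well above background on it were tested as well. limma 3.58.1 in R 4.3.3 gave moderated tests with Benjamini-Hochberg adjustment, and the fits were tested on simulated data. Same-mouse means deviated together (r 0.40, 0.56 and 0.54 over genes; at most 0.01 for other pairs), so the mouse was the block. Replicate arrays correlated at 0.911 to 0.994, and their number limits the precision. Members and lists were chosen with earlier results of these data known, all members being named, and from each list those that passed, at most 5; genes named against the primary array were chosen after their values were seen. Alternatives covered background, scaling, filter, probe choice, error model, blocks and left-out libraries; arrays of 1 scan alone were added after seeing the data.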

Additional observations from a re-analysis of the deposited data

Results flagged for a closer look

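Arrays that stood apart from the other 6 of their group were sought by Dixon's ratio of the gap to the group's range. For independent values, chance puts about 1 in 20 groups above its limit of 0.568. The 7 arrays of a group came from 3 mice, so that rate does not apply here. In 4 of 70 groups of 7 arrays, 1 array was above the limit. They were Fabp1 on the eHep array of 129S1-No2 (0.658; level -3.80, next -5.91), Pdk4 on the third eHep array of C57B6-No1 (0.616; level -0.70, next -1.43), Slc25a20 on the first mHep array of 129S1-No1 (0.574; level 0.52, next -0.24) and Acot4 on the first mHep array of C57B6-No1 (0.574; level 0.83, next 0.19), each the highest of its group.

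For 11 genes the change between media differed between the 2 mice with 3 arrays per medium, by the interaction term of limma over 12 arrays. The change in C57B6-No1 minus that in 129S1-No1 was -7.23 for Slc27a2, -6.83 for Fgf21, -2.01 for Fabp1, -1.89 for Pdk4, -1.63 for Acsl1, -1.21 for Etfdh, -1.14 for Pex11a (adjusted p just under the threshold) and -1.02 for Cyp4a10. It was 2.74 for Acot3, 2.71 for Bdh1 and 1.78 for Vnn1.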

How the results depend on the processing

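No member that passed a test turned its sign under any alternative run. Between media, 4 members and 8 other pathway genes passed. Without the mouse block these were 0 and 1; with quantile scaling, with the authors' value table and with the percentile of probes detected on all arrays 1 and 5 each; with median scaling 14 other genes, and without the filter 15. Over the 14 arrays with the mouse as a block they were 25 and 50, with slide also 13 and 35, with scan also 25 and 57, on the earlier scan alone 9 and 23 and on the later scan alone 24 and 62, where arrays of 1 mouse count singly. The share of all genes called in the same fits is not given for the alternatives in this report. Counts under alternatives are therefore not read as results about the members. Leaving out each mouse gave 4 to 7 and 14 to 20. Against primary, eHep calls (16) became 31 with C57B6-No1 alone, 28 on the earlier scan and 4 to 22 as each mouse was left out, and mHep calls (5) 23, 18 and 1 to 13, with 12 without the filter and 8 with trended robust moderation. Scaling moved the median of all genes against primary from -0.19 to 0.32 in eHep and from -0.34 to 0.23 in mHep (quantile), and the members' medians to -2.41 and -1.04; mHep calls then split into 1 higher and 3 lower. Between media the share of calls that were higher was 75.4% over all genes, 67.9% with median scaling, 85.5% with quantile scaling and 91.4% with the percentile of probes detected on all arrays, but 38.5% over 14 arrays with the mouse block, 35.7% with slide also, 37.6% with scan also and 36.6% on the later scan. Within C57B6-No1, 17 calls became 9 with normexp, and the 11 differences between mice became 2 with normexp, 7 without the filter and 5 to 15 as each array was left out. Same-numbered arrays of 129S1-No1 did not deviate together (r -0.076, -0.10 and -0.19); those of C57B6-No1 did for numbers 1 and 3 (0.60 and 0.68, the latter on 1 slide and scan) and not for 2 (-0.20). With array number as a replicate block the counts were 21 within 129S1-No1 (18 higher, 3 lower), 17 within C57B6-No1 and 12 differences between mice (6 in each direction).

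Among genes that did not pass, the sign turned 46 times. For mHep against eHep these were Acaa1a with normexp (-0.053), the mean of all probes (-0.063), 14 arrays with mouse or with scan (-0.15 each), with slide (-0.25) and on the later scan (-0.41); Acot1 with quantile scaling (0.0071), the authors' table (0.0077), the percentile of probes detected on all arrays (0.055), 14 arrays with mouse or with scan (0.060 each), with slide (0.63) and on the earlier scan (0.48); Etfb with slide (-0.28) and on the later scan (-0.16); Acads on the earlier scan (0.35); and Hadha (-0.012) and Acaa1b (-0.19) on the later scan. As mice were left out Etfb ran from -0.12 to 0.74, Acaa1a from -0.29 to 0.49, Acot1 from -0.39 to 0.15, Acads from -0.47 to 0.23 and Acaa1b from -0.040 to 0.95. For eHep against primary these were Acadl with normexp (0.093) and Acot3 with quantile scaling and the authors' table (0.40 each). For mHep against primary these were Cpt1a with normexp (0.10), quantile scaling (0.64), the authors' table (0.65), median scaling (0.0085) and the percentile of probes detected on all arrays (0.11); Acot3 with quantile scaling (1.97), the authors' table (1.98), the percentile of probes detected on all arrays (0.039), C57B6-No1 alone (1.23) and without 129S1-No2 (0.45); Hadhb (0.45 each), Acadm (0.51 each) and Eci2 (0.17 each) with quantile scaling and the authors' table; and Fgf21 with C57B6-No1 alone (-1.30) and from -0.060 to 2.09 as mice were left out. The cause was not tested. Levels near the background limit, which was higher on the dim primary array, limit what can be measured there.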
